A study of Mus musculus with 2 samples.

Results

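Axon guidance ligands and receptors were examined in sorted mammary basal cells of macrophage-depleted and control mice. They are the semaphorins with their plexin and neuropilin receptors, the ephrins with the Eph receptors, the Slits with the Robos, and the netrins with Unc5 receptors and neogenin. Members were taken by gene symbol, which gave 68 of the 49492 genes in the count table, 34 ligands and 34 receptors. The rule used no measured value. Of the 68, 59 had at least 20 counts summed over both libraries and were compared (17356 genes in all passed this filter).

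These molecules were named for steering growth cones, and epithelia use them as well. Semaphorins bind plexins, often with a neuropilin, and can weaken adhesion to the matrix. Ephrins stay on the cell surface and signal in both directions when they meet an Eph receptor on a neighbouring cell, which helps to keep cell layers apart. In the mammary gland, netrin 1 with neogenin and Slit with Robo1 hold the basal and luminal layers together, and Slit and Robo signals have been linked to the division and self-renewal of basal and stem cells.

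The data held 2 libraries of total RNA, 1 per group, both from mammary epithelial cells of wild-type (WT) mice and both labelled day 7. CL basal came from mice given clodronate liposomes (CL), vesicles that kill the macrophages that engulf them, in repeated intraperitoneal injections. Ctrl basal came from control mice, whose treatment is labelled none and which the series' design text calls treated with saline. The comparison asks how basal cells differ when macrophages have been depleted, and the libraries are called the CL library and the control below. Per the study's methods, the mice were adult females, and basal cells were sorted as negative for CD45, CD31 and TER119, positive for CD24 and high for CD29. How many mice stand behind a library was not given in the sources used here.

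The CL library held 38962512 counts and the control 37846008, and members took 0.195% and 0.192% of them. With a single library per group, the differences carry no replicate check and compare these libraries, not the conditions. Differences are log2 fold changes, positive where the CL library was higher, with a 95% exact binomial interval of the reads, which covers counting error only. Among values from 1 to 20, even numbers made up 68.7% in the CL library and 67.9% in the control. Both mates of a pair may thus have been counted, in which case the intervals are too narrow. A gene was called higher or lower where it differed by at least 2-fold, or in a wider rule at least 1.5-fold, and its interval left out 0. Levels are reads scaled to library size and to the length of a gene's exons in kilobases (RPKM), the only scale on which genes are compared with each other.

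Basal markers differed little in sum between the libraries. All 20 genes of a basal and myoepithelial list were present, with a summed level of 24991 CPM (counts scaled to library size) in the CL library and 24301 in the control, and a median log2 fold change of 0.03. Single basal genes ran from -0.59 (*Procr*, 5568 and 8360 counts, the 1 gene of the list called at 1.5-fold) to 0.50 (*Lgr6*, 956 and 674 counts). Markers of other cells were also present and many were lower in the CL library. The 20 luminal genes summed to 3684 CPM in the CL library and 6244 in the control, and 17 were called lower at 1.5-fold. The 16 endothelial genes summed to 612 and 769 CPM (14 of 16 below 0), and *Pecam1*, which encodes the CD31 used to gate endothelial cells out, had 4266 and 5503 counts. The 8 pericyte genes summed to 101 and 154 CPM and the 14 fibroblast genes to 230 and 288. The 16 macrophage genes summed to 77.7 and 55.3 CPM, a sum dominated by *Marco* (1784 and 907 counts), and 7 of the 11 tested lay below 0, with a median of -0.08. *Mpeg1* (88 and 28 counts) was called higher at 2-fold and *Marco* at 1.5-fold, while *Mrc1* was called lower at 1.5-fold. The 12 Schwann cell genes summed to 393 and 372 CPM, with *Egr2* (6901 and 5391 counts) above 0 but 9 of 11 tested genes below it, a median of -0.14, and *S100b* and *Erbb3* called lower at 2-fold. The 10 adipocyte genes summed to 102 and 140 and the 10 lymphocyte genes to 19.2 and 20.2. None of these markers was at 0 in both libraries. In bulk RNA, fewer cells of a type and less RNA per cell cannot be told apart.

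Most guidance genes differed little between the libraries. The median log2 fold change of the 59 members was -0.10, against -0.01 over all tested genes, and 50 of the 59 were not called at either threshold. At 2-fold, 2 members were higher (*Robo2* and *Sema4g*) and 3 were lower (*Ephb2*, *Unc5c* and *Sema4f*). These are 3.39% and 5.08% of the members, where 1.99% of all tested genes were called higher and 4.44% lower (5 of 59 members in either direction, against 6.43% of all tested genes). At 1.5-fold, 3 members were higher and 6 lower, 5.08% and 10.2%, where 4.78% and 9.45% of all tested genes were called (15.3% of members in either direction, against 14.2%). Over all members, the shares thus lay near the background. Of the 9 members with 20 to 99 counts, 2 were called at 2-fold, against 20.9% of all genes in that range, and 5 at 1.5-fold (55.6%, against 29.5%). Of the 16 with at least 100 and under 1000 counts, 2 were called at 2-fold (12.5%, against 4.10%) and 3 at 1.5-fold (18.75%, against 17.2%). Of the 32 members with at least 1000 and under 10000 counts, *Ephb2* alone was called at 2-fold (3.13%, against 0.715% of all genes in that range). It was also the only one called at 1.5-fold (3.13%, against 3.45%).

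**Figure D1:**
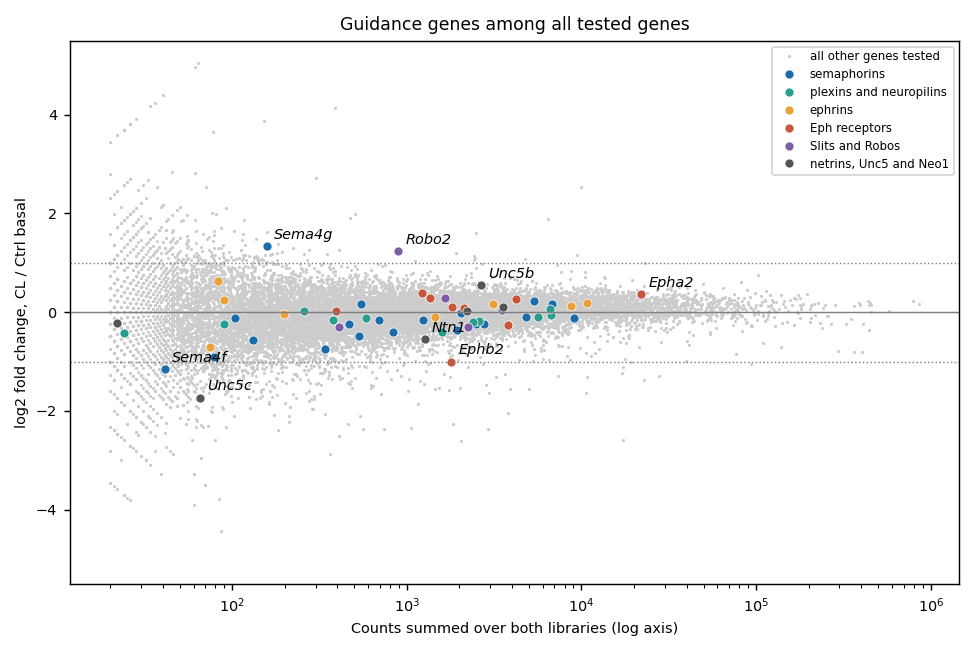
Log2 fold change of the CL library over the control (vertical axis) against counts summed over both libraries (horizontal log axis), 1 point per gene with at least 20 counts. Guidance genes are coloured by family, dotted lines mark 2-fold, and most members lie near 0 while *Robo2*, *Sema4g*, *Ephb2*, *Unc5c* and *Sema4f* lie on or past a dotted line.

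As regulatory context for the members on which the results turn, the RefSeq start-site windows (GRCm38.p6, from 250 bases before to 50 after the start) are shown for *Robo2*, the called receptor that rose, *Ephb2*, the called receptor that fell with the most counts, and *Epha2*, the member with the highest level. RefSeq windows matched 60 of the 68 members. *Robo2* has 3 of them, of which the 1 at the 5′ end of the gene in the count table is given, since the others lie outside the gene's span there (1 of those holds the TEAD letters once). Capitals mark, on either strand, the TEAD motif CATTCC or the TCF/LEF motif CTTTGA, letters read by factors of the Hippo and Wnt pathways, which do not overlap each other here.
Robo2, chr16:74411776-74412075, minus strand: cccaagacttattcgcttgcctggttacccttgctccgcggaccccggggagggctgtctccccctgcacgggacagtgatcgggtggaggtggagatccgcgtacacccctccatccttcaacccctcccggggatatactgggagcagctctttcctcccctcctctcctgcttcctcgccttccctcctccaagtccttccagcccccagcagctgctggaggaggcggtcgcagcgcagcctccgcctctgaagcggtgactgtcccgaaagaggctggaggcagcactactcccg
Ephb2, chr4:136835963-136836262, minus strand: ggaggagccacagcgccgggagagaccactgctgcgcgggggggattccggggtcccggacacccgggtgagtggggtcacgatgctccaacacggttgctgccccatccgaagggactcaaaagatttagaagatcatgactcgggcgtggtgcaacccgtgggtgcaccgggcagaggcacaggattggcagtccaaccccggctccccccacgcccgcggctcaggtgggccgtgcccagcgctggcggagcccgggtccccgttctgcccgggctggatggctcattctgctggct
Epha2, chr4:141300971-141301270, plus strand: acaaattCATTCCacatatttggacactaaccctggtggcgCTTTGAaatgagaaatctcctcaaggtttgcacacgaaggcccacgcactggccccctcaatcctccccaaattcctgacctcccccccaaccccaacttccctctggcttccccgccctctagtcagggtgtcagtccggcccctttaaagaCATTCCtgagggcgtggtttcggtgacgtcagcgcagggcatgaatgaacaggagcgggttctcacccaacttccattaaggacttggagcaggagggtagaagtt
The printed *Robo2* and *Ephb2* windows held neither motif, and the *Epha2* window held 2 TEAD matches and 1 TCF/LEF match. Among all 32851 windows of 300 bases, 14.7% held the TEAD letters and 16.0% the TCF/LEF letters. Of the 76 windows of members, 9 held the TEAD letters and 5 the TCF/LEF letters. A match is a description of the letters, and promoter use was not measured.

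Among the Slits and Robos, a single receptor stood out. *Robo2* (chromosome 16, 73892306 to 74411825, GRCm38), a receptor for Slit, had 629 counts in the CL library and 264 in the control. It was thus higher in the CL library, by 1.24 on the log2 scale (95% interval 1.04 to 1.46), a 2.37-fold difference. The log2 fold change stayed between 1.20 and 1.28 under the other settings tried, and the call was lost with an assumed coefficient of variation between animals of 0.4. Its paralog *Robo1*, the better known mammary Slit receptor, had 1777 and 1710 counts and a log2 fold change of 0.05 (-0.04 to 0.15). Per length *Robo1* was the more abundant of the pair in each library, at 6.11 RPKM in the CL library and 5.90 in the control, against 0.99 and 0.42 for *Robo2*. The ratio of *Robo1* to *Robo2* levels therefore differed between the libraries while *Robo1* itself lay within its counting interval of no difference.

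The other members of this pathway were not called. *Robo4*, a Robo of endothelial cells, had 184 counts in the CL library and 226 in the control (-0.30, -0.59 to -0.01), beside endothelial markers with a median of -0.31. Of the secreted ligands, *Slit2* had 1013 and 1237 counts (-0.29, -0.41 to -0.17) and *Slit3* had 904 and 742 (0.28, 0.14 to 0.42), so the ligands lay on opposite sides of 0. *Slit3* had the higher level, 3.88 RPKM in the CL library and 3.19 in the control, against 1.04 and 1.27 for *Slit2*. The exon length used, which joins all isoforms, was 25433 bases for *Slit2* and 6067 for *Slit3*, so this order depends on that length. *Slit1* and *Robo3* fell under the filter. *Slit1* had 16 and 3 counts, and its log2 fold change was 1.85 with an interval of 0.61 to 4.83, and *Robo3* had 1 and 0.

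Eph receptors are receptor tyrosine kinases. The A class binds mainly ephrins held by a lipid anchor, and the B class binds ephrins that cross the membrane. Of the 14 Eph receptors, 9 were tested, 7 of them lay above 0 and *Ephb2* was called lower. *Epha2* (chromosome 4, 141301240 to 141329384), which acts in mammary branching, had by level the most RNA of all members, 68.7 RPKM in the CL library and 53.2 in the control. It had 12355 and 9539 counts, and its log2 fold change was 0.37 (0.33 to 0.41). It exceeded the next Eph receptors, *Ephb4* (9.70 and 11.6 RPKM) and *Epha4* (7.49 and 6.19 RPKM), several times over in each library.

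*Ephb2* (chromosome 4, 136647539 to 136835988) was the member with the most counts among those called. It had 600 counts in the CL library and 1199 in the control, for a log2 fold change of -1.0002 (-1.15 to -0.86), which met the 2-fold threshold with nothing to spare. Under 6 other settings it fell just short of 2-fold, at -0.99 with DESeq2 size factors for example, and it was called at 1.5-fold under every setting but the widest interval tried. Luminal markers, 17 of 20 called lower at 1.5-fold, moved the same way as *Ephb2*, and their part in its value was not tested. The other B receptors were not called. *Ephb4*, known from veins as well as the mammary gland, had 1731 and 2064 counts (-0.26, -0.35 to -0.16). *Ephb6*, which lacks kinase activity, had 698 and 528 (0.40, 0.23 to 0.56), while *Ephb1* (0.10) and *Ephb3* (0.09) had intervals that held 0.

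The tested A receptors lay above 0 together, though none reached 1.5-fold. *Epha4* had 2318 counts in the CL library and 1911 in the control (0.27, 0.19 to 0.36). *Epha7* had 750 and 615 (0.28, 0.13 to 0.44). *Epha1*, with 200 and 195 counts, had an interval that held 0 and was below 0 when libraries were scaled by total counts alone, where 3 of the 4 A receptors and 6 of the 9 Eph receptors lay above 0. The other 5 A receptors had few or no counts. *Epha3* had 2 counts in the CL library and 8 in the control, *Epha5* 2 and 4, and *Epha8* 4 and 0. *Epha6* and *Epha10* had 0 in both, which allows up to 0.078 CPM in each library.

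The ephrins, the ligands of these receptors, included both abundant and low-level members. *Efnb1* stood at 34.0 RPKM in the CL library and 31.3 in the control, *Efna1* at 23.4 and 20.9, and *Efnb2* at 21.6 and 19.0. These were the highest levels of all members after *Epha2*. Their differences were small: *Efnb1* had 4510 and 4145 counts (0.12, 0.06 to 0.18), *Efna1* had 1650 and 1465 (0.17, 0.07 to 0.27) and *Efnb2* had 5697 and 5001 (0.18, 0.13 to 0.24). The membrane-spanning ephrins all lay above 0, and *Efnb3* (51 and 32 counts) was called higher at 1.5-fold with a log2 fold change of 0.64 (0.003 to 1.35). That call was lost with total counts, with the deeper library thinned, with counts halved and with an assumed spread between animals (coefficient of variation) of 0.2. *Efna4* (28 and 47 counts) was called lower at 1.5-fold (-0.71, -1.48 to -0.05), a call lost with counts halved, with the trend on expression removed and with an assumed spread of 0.2, and 168 of its 1599 exonic bases overlap an opposite-strand gene, whose reads cannot be told apart from its own if strand was not counted. The other A ephrins, *Efna2*, *Efna3* and *Efna5*, had intervals that held 0, with 98 and 100, 49 and 41, and 696 and 745 counts. *Efnb2* and its receptor *Ephb4* are known as an arterial and venous pair, and here *Efnb2* lay above 0 and *Ephb4* below it.

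**Figure D2:**
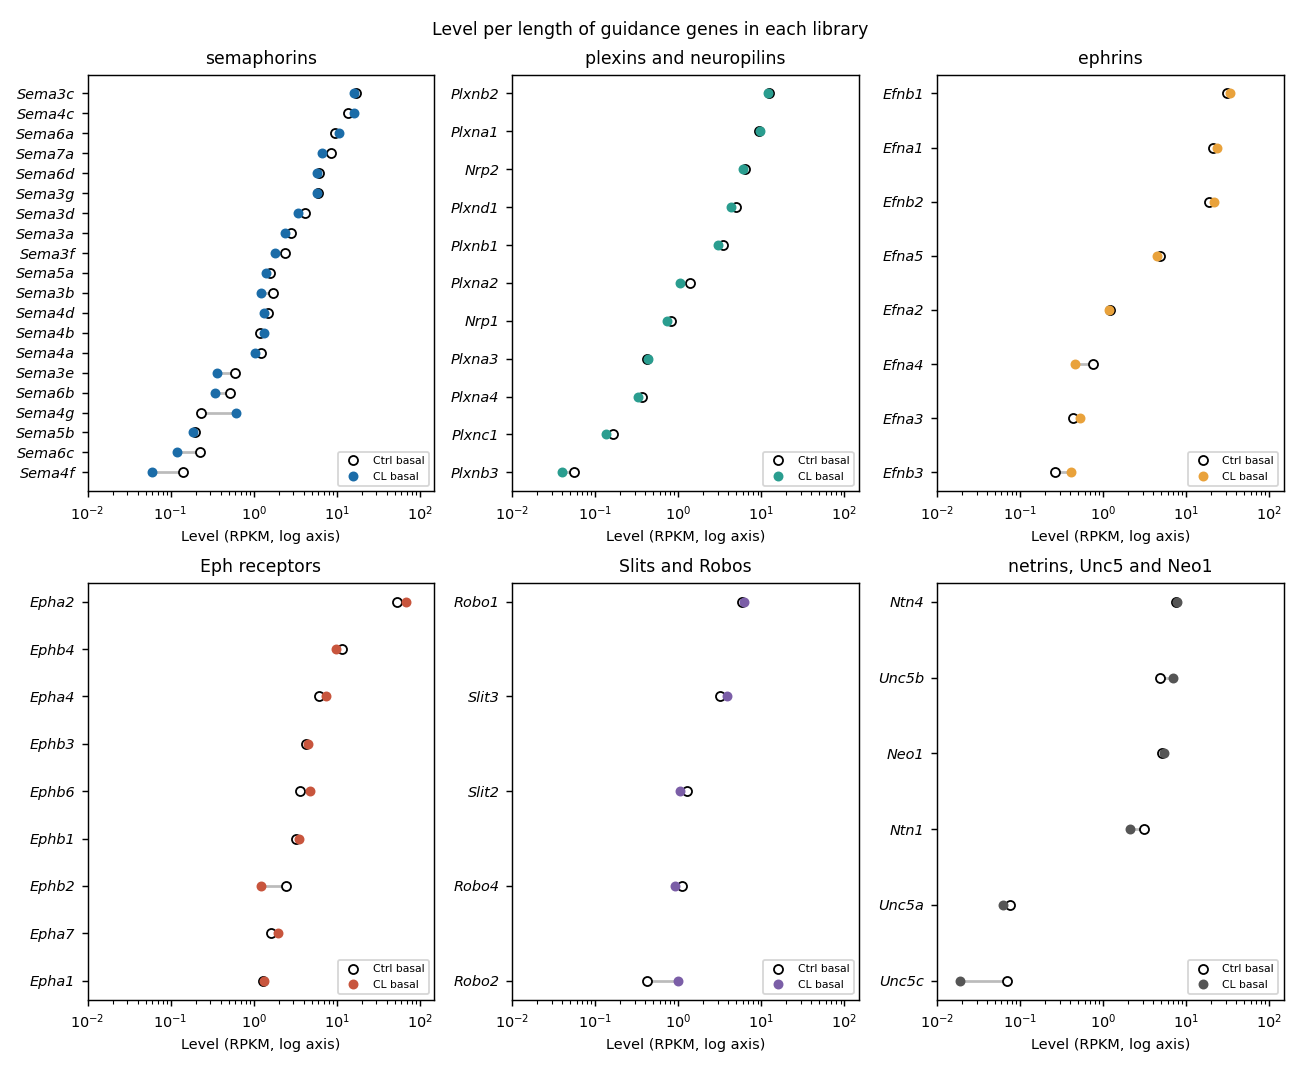
Level of each tested member in RPKM (horizontal log axis) in the control (open circle) and the CL library (filled circle), by family, with genes ordered by mean level. *Epha2* is highest, at 68.7 RPKM in the CL library and 53.2 in the control, and the widest gaps are those of *Robo2*, *Sema4g*, *Ephb2*, *Unc5c* and *Sema4f*.

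Of the 20 semaphorins, which are secreted (class 3) or held at the membrane (classes 4 to 7), all were tested and 16 lay below 0, with a median of -0.20. All 7 class 3 semaphorins lay below 0 under every scaling tried, and their summed level was 222 CPM in the CL library and 250 in the control. *Sema3c*, at 16.0 RPKM in the CL library and 17.2 in the control, was with *Sema4c* (16.3 and 13.9 RPKM) the most abundant semaphorin, and had 4381 and 4711 counts (-0.11, -0.17 to -0.05). *Sema3e*, the ligand of plexin D1, was the one class 3 gene called at 1.5-fold, with 128 and 214 counts (-0.74, -1.07 to -0.42), a call lost when a spread between animals of 0.2 was assumed. Of the 7, 6 had an interval below 0, where 43.4% of all genes with at least 100 and under 1000 counts and 64.1% of those with at least 1000 and under 10000 had an interval without 0 in either direction. The others were *Sema3b* (-0.47), *Sema3f* (-0.39), *Sema3d* and *Sema3a* (both -0.24, with 1147 and 1355 and with 1271 and 1499 counts) and *Sema3g* (-0.02, with an interval that held 0). Of the marker lists given above, all but the basal one had negative medians as well. The lowest were those of luminal (-0.87), pericyte (-0.71), adipocyte (-0.59), fibroblast (-0.51) and endothelial (-0.31) markers. Their part in the class 3 values was not tested. With the trend on expression removed, 15 of the 20 semaphorins lay below 0.

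Membrane semaphorins went both ways. *Sema4g* (chromosome 19, 44989101 to 45003397) was called higher, with 114 counts in the CL library and 44 in the control, with a log2 fold change of 1.33 (0.86 to 1.91), and the call was lost with an assumed spread of 0.4. It was a gene of low level, 0.61 RPKM in the CL library and 0.24 in the control. *Sema4f* (chromosome 6, 82911885 to 82939769) was called lower on few reads, 12 and 29 counts, with a log2 fold change of -1.15 and an interval of -2.38 to -0.26. The call was lost with counts halved and with an assumed spread of 0.2. *Sema6c* (27 and 52 counts) was called lower at 1.5-fold (-0.90, -1.68 to -0.25) and lost the call under the same settings. The abundant membrane semaphorins were not called: *Sema4c* had 2877 and 2444 counts (0.23, 0.15 to 0.31), with 334 of its 4593 exonic bases shared with an opposite-strand gene, and *Sema6a* had 3616 and 3197 (0.17, 0.10 to 0.24). *Sema6d* had 2341 and 2501 (-0.10, -0.18 to -0.02). *Sema7a*, which is lipid-anchored and binds integrins, had 856 and 1091 (-0.35, -0.48 to -0.22), and *Sema6b* had 53 and 79 (-0.56, -1.11 to -0.06). The intervals of *Sema4a*, *Sema4b*, *Sema4d*, *Sema5a* and *Sema5b* held 0, with log2 fold changes from -0.23 to 0.16.

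Among the receptors of semaphorins, no plexin or neuropilin was called at 1.5-fold. Of the 9 plexins and 2 neuropilins, 9 lay below 0, 10 when libraries were scaled by total counts alone, and their log2 fold changes ran from -0.42 (*Plxnb3*, 10 and 14 counts) to 0.07 (*Plxna1*). *Plxnb2*, a receptor of class 4 semaphorins, had the highest level of them, 12.004 RPKM in the CL library and 12.4 in the control, with 3286 and 3398 counts (-0.05, -0.12 to 0.02). *Plxna1* followed at 9.72 and 9.25 RPKM, with 3385 and 3213 counts (0.07, 0.00 to 0.14), and *Nrp2*, a co-receptor of class 3 semaphorins, had 2750 and 2916 (-0.09, -0.16 to -0.01). *Nrp2* was the more abundant neuropilin, at 6.04 and 6.42 RPKM against 0.74 and 0.81 for *Nrp1*. *Plxna2* had 684 and 903 counts (-0.40, -0.55 to -0.26). *Plxnb1*, the receptor of *Sema4d*, had 1113 and 1277 (-0.20, -0.32 to -0.09). *Plxnd1*, the endothelial receptor of *Sema3e*, had 1214 and 1374 (-0.18, -0.30 to -0.07), beside the endothelial markers' median of -0.31. The intervals of *Plxna3*, *Plxna4*, *Plxnc1* and *Nrp1* held 0.

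Netrins act through Dcc, neogenin and the Unc5 receptors, and *Dcc* had 0 counts in both libraries, which allows up to 0.078 CPM. *Ntn1* (chromosome 11, 68209364 to 68400823), the netrin of mammary end buds, had 516 counts in the CL library and 749 in the control. *Unc5b* (chromosome 10, 60762610 to 60831581), its repulsive receptor, had 1581 and 1080. Ligand and receptor thus lay on opposite sides, *Ntn1* at -0.54 (-0.71 to -0.38) and *Unc5b* at 0.55 (0.43 to 0.66), and each fell just short of the 1.5-fold threshold. *Neo1*, which encodes neogenin, had 1829 and 1705 counts (0.10, 0.0015 to 0.19). *Ntn4*, a basement membrane netrin that binds laminin, had the highest level of the family, 7.72 RPKM in the CL library and 7.61 in the control, with 1111 and 1092 counts and a log2 fold change of 0.02 (-0.10 to 0.14).

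The remaining netrin receptors were near the limit of depth. *Unc5c* was called lower with 14 counts in the CL library and 51 in the control, with a log2 fold change of -1.73 (-2.84 to -0.99), at only 0.02 and 0.07 RPKM, and the call was lost with an assumed spread of 0.4. It shares 118 of its 19135 exonic bases with an opposite-strand gene that had 0 and 3 counts. *Unc5a* had 10 and 12 counts, *Unc5d* 0 and 2 and *Ntn5* 2 and 0.

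**Figure D3:**
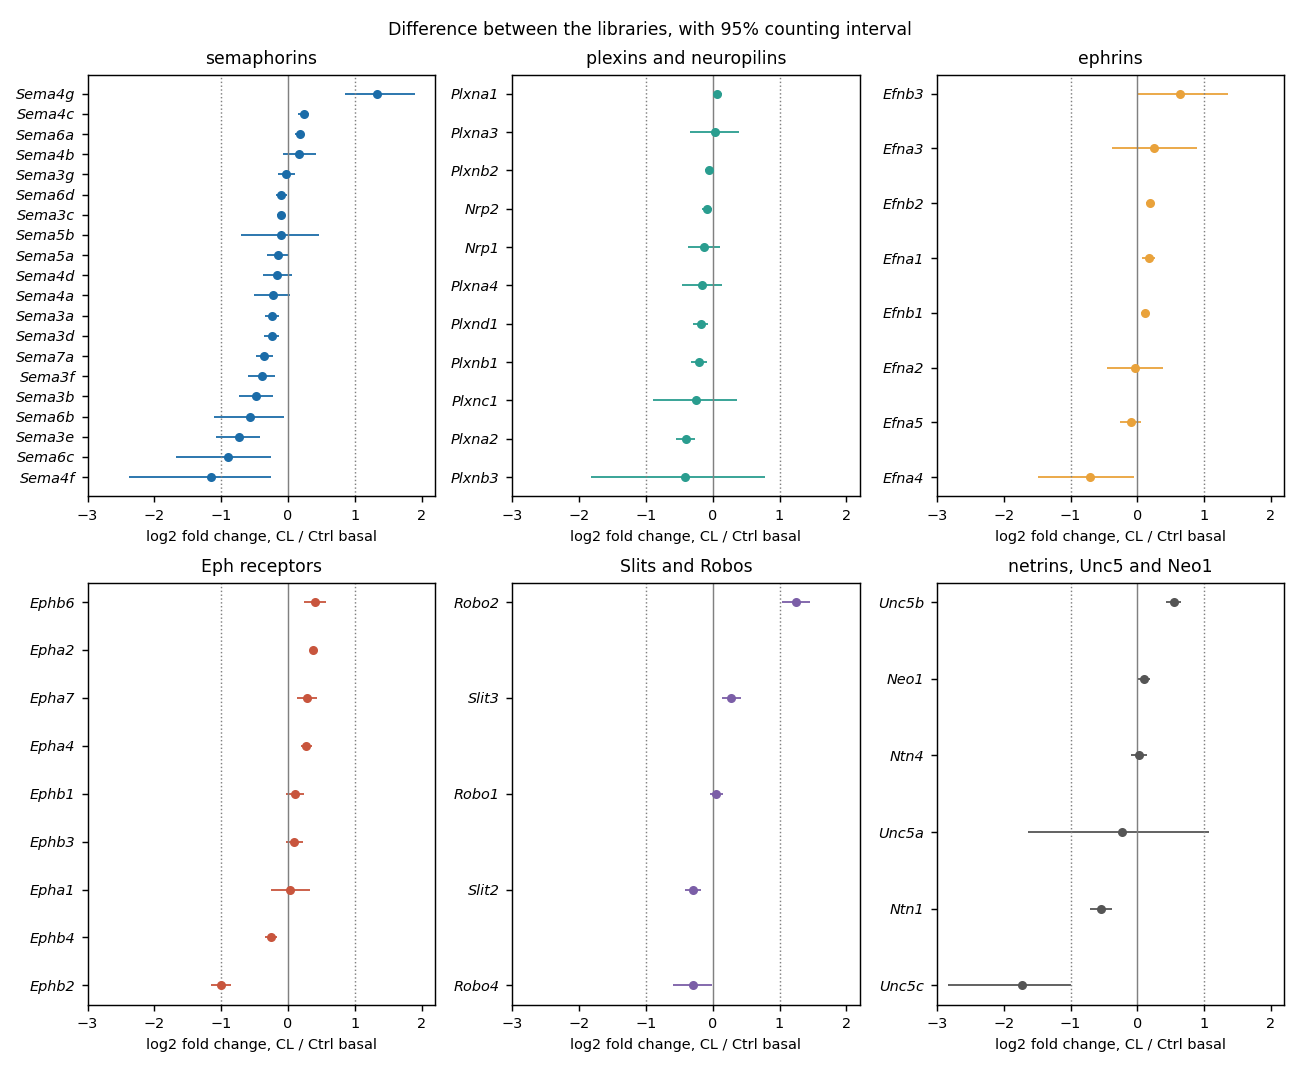
Log2 fold change of the CL library over the control for each tested member by family (points), with bars for the 95% exact binomial counting interval and dotted lines at 2-fold. *Robo2* and *Sema4g* lie past the upper line, *Ephb2* lies on the lower line, *Unc5c* and *Sema4f* lie past it, and all class 3 semaphorins lie below 0.

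Other genes of the same pathways had a median near 0. A list of 76 co-receptors, intracellular effectors, kinases and adaptors that are no members had 70 tested genes, a median log2 fold change of 0.01, 34 genes below 0 and 36 above. At 2-fold 0 were higher and 1 was lower, *Dpysl5*, a collapsin response mediator, with 22 counts in the CL library and 58 in the control (-1.33, -2.18 to -0.67). At 1.5-fold, *Flrt1*, an Unc5 ligand (30 and 14 counts), and *Cntn1* (52 and 32) were also higher, and *Ngef*, which acts under Eph receptors (96 and 181), was also lower, all 3 named after their values were seen. These are 1 of 70 genes at 2-fold and 4 of 70 at 1.5-fold, where 6.43% and 14.2% of all tested genes were called. Many genes of the list had at least 1000 counts. Of all genes with at least 1000 and under 10000 counts, only 0.715% and 3.45% were called. The 19 cytoskeletal effectors, of which 17 were tested, had a median of -0.10, and of the netrin co-receptors and related genes 7 of 8 tested lay above 0, with a median of 0.20.

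**Figure D4:**
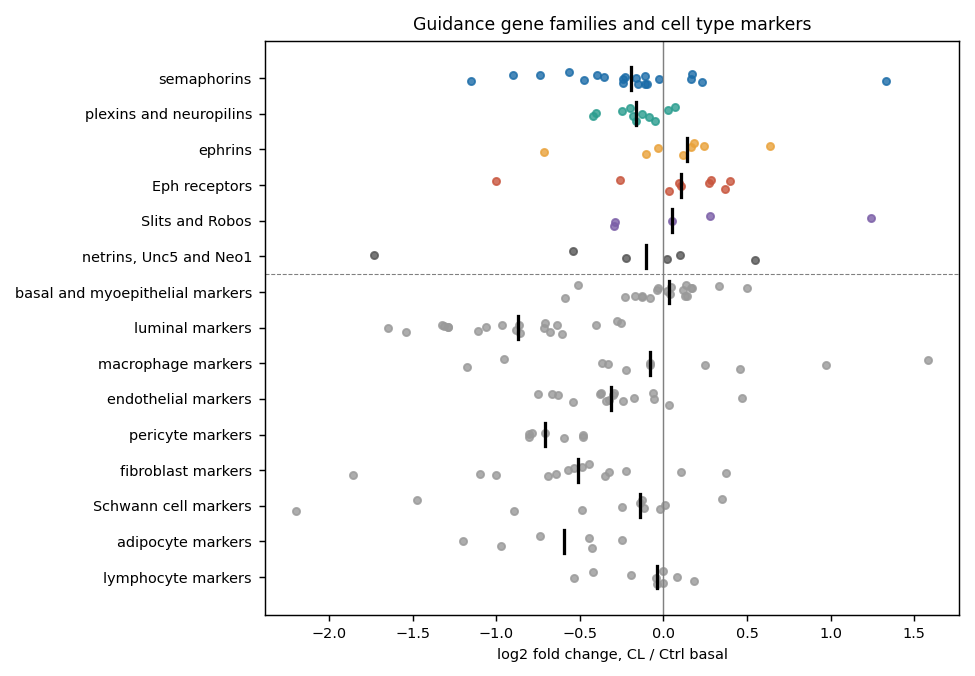
Log2 fold change of the CL library over the control for tested genes of each guidance family (coloured) and of each cell type marker list (grey), 1 point per gene, with a black bar at the median. The family medians lie between -0.20 (semaphorins) and 0.14 (ephrins), while the luminal markers have a median of -0.87 and the pericyte markers one of -0.71.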

How the data were processed

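Total RNA of sorted basal cells was sequenced on an Illumina HiSeq instrument, 1 library per group. The authors deposited raw read counts per gene over annotated exons, in the layout of featureCounts and not normalized. The submitters' processing notes name GRCm38, and in the annotation used here to check it, GENCODE M21, all 68 members overlapped the gene of their name and 59 had the same start and end. The aligner, annotation release and use of strand were not given in the sources used here. The table also holds the authors' ratio and log2 fold change, which were not used. Without strand, reads of overlapping genes cannot be told apart, which touches 16 members.

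Scaling used edgeR 4.0.16 under R 4.3.3 (TMM factors, 0.987 for the CL library and 1.01 for the control). Fold changes used a prior count of 2, and intervals are exact binomial (Clopper-Pearson, scipy 1.17.1, Python 3.11.15) without it. Genes needed at least 20 counts over both libraries. A count of 0 allows up to 3 counts. The calculation was run on simulated data, with log2 changes of 2 in either direction planted in genes with at least 100 counts. That run cannot bear on calls with smaller changes or fewer counts. No model with replicate spread could be fitted, so no p-value is given. RPKM uses the exon length in the table, which joins all isoforms.

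Members named with counts and intervals are those called at 2-fold or 1.5-fold, the 3 with the highest level in each family, and others where a pathway is described. The members, the lists, the promoter motifs and the choice of promoters were made with earlier results of these data known. The alternatives were other scalings (total counts, upper quartile, DESeq2 1.42.0), low-count filters, prior counts, thinning, halved counts, removal of a trend on expression, and intervals widened by an assumed spread between animals.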

Additional observations from a re-analysis of the deposited data

How the results depend on the processing

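The counts of called members depended on the filter and on the spread assumed. With at least 100 counts, 1 member was lower at 2-fold and 2 at 1.5-fold, since fewer genes were tested. With counts halved, 1 and 3 were lower (*Ephb2* moved just under 2-fold, and *Sema4f*, *Sema6c* and *Efna4* lost their calls). With intervals widened by an assumed coefficient of variation between animals of 0.2, 2 members were lower at 1.5-fold, and with 0.4, 0 were higher and 0 lower at either threshold. The same settings lowered the calls over all 17356 tested genes, to 703 lower at 1.5-fold with 0.2 and to 40 higher and 126 lower with 0.4. *Ephb2* lay at -1.04 under total counts and at -0.99 under the upper quartile, and *Sema6b* was called lower at 1.5-fold under total counts. The member median stayed between -0.14 with total counts and -0.07 with at least 100 counts. Of 581 single member values, 577 stayed within the counting interval of the reported value and 0 of the called members changed sign. The other 4 were *Epha2* (0.29), *Efnb2* (0.11), *Efnb1* (0.05) and *Sema3c* (-0.18) without the trend on expression, and the cause was not tested. The filters cannot change a single value, and the scalings shift all genes nearly alike. Much of the 577 was thus fixed in advance, and it says nothing of the spread between animals. Without a filter, *Slit1* was called higher. No paired analysis was possible because there was a single library on each side. Depth limits *Unc5c*, *Sema4f*, *Sema6c*, *Efna4* and *Efnb3*, which have under 100 counts.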
